A study of Mus musculus with 3 samples.

Results

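The cells described here are MHC class II high, Lyz2-positive mononuclear phagocytes of mouse liver, 124 of 20950 cells that passed quality filters in 3 single-cell libraries. They were chosen by their counts of unique molecular identifiers (UMIs, 1 per captured RNA molecule). A member had at least 500 UMIs, at least 250 genes and at most 25% mitochondrial UMIs, at least 10 UMIs of Lyz2 (lysozyme), at least 2 UMIs of Csf1r and Ccr2 together, and at least 10 UMIs of H2-Aa, H2-Ab1 and H2-Eb1 together. Cells with any UMI of the dendritic cell genes Flt3, Xcr1, Clec9a or Cd209a, of the Kupffer cell genes Clec4f or Vsig4, or of the lymphocyte genes Cd79a or Cd3e were left out, as were cells with more than 1 UMI of Treml4 and Ace (nonclassical monocytes) or with 5% or more of their UMIs from S100a8 and S100a9 (neutrophils). The working name for these cells is monocyte-derived macrophages; origin from monocytes was not measured, so they are called MHC class II high cells below. Of the 124 members, 99 came from the library labelled dHep_IR, 5 from FL_IR and 20 from FL_control.

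The study compared livers after radiation, with and without the pyroptosis gene Gsdmd in hepatocytes, by 10x Genomics 3' single-cell RNA sequencing, with 1 library in each group. dHep_IR is labelled as a Gsdmd deletion in hepatocytes (∆Hep) with irradiation, and its genotype tag names a knockout without naming a cell type. FL_IR is labelled as floxed Gsdmd (FL/FL, tagged wild type) with irradiation, and FL_control as floxed Gsdmd without irradiation. The design text gives 30 Gy and a harvest 7 days later; the part of the body irradiated, the Cre driver, the exons deleted, the age, and the number of animals in a library are not given in the sources used here. Comparing dHep_IR with FL_control therefore changes irradiation and genotype together, and these cannot be told apart. With 1 library in a group there is no replicate check, and because cells of 1 library do not stand in for animals, values are given without p-values. Intervals are exact 95% intervals (Poisson for sums, Clopper-Pearson for shares, conditional for ratios) and cover counting error only.

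MHC class II molecules display peptides from engulfed material to CD4 T cells. Their α and β chains are loaded in endosomes with the help of the invariant chain Cd74 and the H2-DM proteins, and the genes are switched on together by the transactivator Ciita. In liver, blood monocytes expressing Ly6c2 and Ccr2 can enter injured tissue, lose monocyte transcripts and gain macrophage transcripts such as the complement C1q chains and Apoe, while resident Kupffer cells are marked by Clec4f and Vsig4.

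The promoters of 3 class II genes are printed to show the sequence elements such co-regulated genes can carry: H2-Eb1 (β chain) and H2-Aa (α chain), which the rule used, and H2-DMb1 (peptide loading), which it did not. Each runs from 250 bases before to 50 bases after the annotated start, 5′ to 3′ on the gene's own strand, from RefSeq on GRCm38.p6. Capitals mark GATTGG (either strand), a core of the Y box bound by NF-Y, and TGATGAT (either strand), letters of the X2 box region bound by CREB-type factors next to the RFX site; these patterns were chosen after the promoters had been read, and the matches do not overlap. The H2-Eb1 promoter lies at chr17:34305617-34305916 on the plus strand, H2-Aa at chr17:34287774-34288073 on the minus strand and H2-DMb1 at chr17:34152941-34153240 on the plus strand.
H2-Eb1: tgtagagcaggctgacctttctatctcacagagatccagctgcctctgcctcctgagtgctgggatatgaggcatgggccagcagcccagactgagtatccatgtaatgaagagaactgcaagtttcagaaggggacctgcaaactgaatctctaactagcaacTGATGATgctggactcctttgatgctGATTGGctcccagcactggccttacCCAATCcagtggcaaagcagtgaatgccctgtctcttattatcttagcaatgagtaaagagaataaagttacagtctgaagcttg
H2-Aa: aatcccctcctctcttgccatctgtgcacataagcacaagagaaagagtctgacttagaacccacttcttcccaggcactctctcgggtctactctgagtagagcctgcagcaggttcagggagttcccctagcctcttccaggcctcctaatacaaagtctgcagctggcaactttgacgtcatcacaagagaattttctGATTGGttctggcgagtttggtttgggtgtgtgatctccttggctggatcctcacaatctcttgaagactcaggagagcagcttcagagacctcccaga
H2-DMb1: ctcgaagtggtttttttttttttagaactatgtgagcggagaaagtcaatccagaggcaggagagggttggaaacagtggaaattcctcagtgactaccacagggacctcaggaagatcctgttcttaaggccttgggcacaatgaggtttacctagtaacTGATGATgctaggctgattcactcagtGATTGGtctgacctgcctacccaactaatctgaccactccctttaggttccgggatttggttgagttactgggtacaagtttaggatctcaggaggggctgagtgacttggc
The first GATTGG began 60 bases before the start in H2-Eb1, 49 in H2-Aa and 62 in H2-DMb1. TGATGAT began 86 bases before the start of H2-Eb1 and 89 before that of H2-DMb1, with 19 and 20 bases between it and the next GATTGG. These letters were not in the H2-Aa window. Other spellings of the X2 box were not searched for, and the letters tgacgtca before the GATTGG of H2-Aa are left unmarked. The missing TGATGAT therefore does not show that H2-Aa lacks an X2 box. Of 32851 promoters of this length, 16.1% held GATTGG and 3.58% held TGATGAT. Of 13 class II symbols matched in the RefSeq table, 10 held GATTGG and 2 (H2-Eb1 and H2-DMb1) held TGATGAT. H2-Ab1 and Ciita had no entry.

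The libraries labelled dHep_IR, FL_IR and FL_control held 78694038, 59228905 and 52858425 UMIs over 8214, 7265 and 7393 barcodes, and 7552, 6780 and 6618 cells passed the filters. The members' median depth was 13984 UMIs in dHep_IR, 13817 in FL_IR and 9237 in FL_control, over a range of 2891 to 38464. Across library pairs 102 cell barcodes were shared, among them those of 1 dHep_IR member and 1 FL_IR member. Gsdmd, the targeted gene, was at 36.8 CPM (UMIs of the gene per 1000000 summed UMIs) over all kept cells of dHep_IR, 7.26 in FL_IR and 36.2 in FL_control, so the lowest level stood in a library labelled floxed. In the members Gsdmd was at 60.7 CPM (48.6 to 74.9) in dHep_IR, 23.3 from 2 UMIs in FL_IR and 109 CPM (69.3 to 164) in FL_control. The deletion is labelled for hepatocytes, which the members are not, and 3' tags may lie outside the deleted part, so Gsdmd in these cells does not check the labels. Gsdmd was lowest in FL_IR in other gated cells too. In dHep_IR, FL_IR and FL_control it was at 26.3, 8.87 and 25.8 CPM in endothelial cells and at 34.8, 7.62 and 55.6 CPM in Kupffer cells. In cells that met the rule except for its class II count it was at 47.7, 6.18 and 52.1 CPM. The cause was not tested. Since the lowest Gsdmd stood in FL_IR, every direction below is between libraries as labelled. A count of 0 over the members allows up to 2.09 CPM in dHep_IR, 35.0 in FL_IR and 14.3 in FL_control (3 UMIs of each sum).

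The share of members differed between the libraries. They made up 1.31% (1.07 to 1.59) of kept cells in dHep_IR, 0.0737% (0.0239 to 0.172) in FL_IR and 0.302% (0.185 to 0.466) in FL_control. Among all cells that met the other parts of the rule at any class II level, members were 99 of 570 in dHep_IR (17.4%, 14.3 to 20.7), 5 of 146 in FL_IR (3.42%, 1.12 to 7.81) and 20 of 93 in FL_control (21.5%, 13.7 to 31.2). The larger share of kept cells in dHep_IR than in FL_control thus went with more cells of the rule at every class II level; the share of those cells that were class II high had overlapping intervals in dHep_IR and FL_control. The remaining 471, 141 and 73 cells, with under 10 class II UMIs, are called MHC class II low cells. In FL_control, 30 low cells and 1 member held 3 or more UMIs of Prg4, Alox15 and Gata6 (described below). In dHep_IR this held for 1 low cell and 0 members. Without such cells FL_control had 19 members and 43 low cells, and dHep_IR had 99 and 470. The FL_control share thus depends on whether these cells are counted. The exclusions mattered to the size of the set: 82, 0 and 5 cells missed it by Treml4 and Ace alone, 42, 5 and 170 by Kupffer genes alone, and 27, 7 and 16 by dendritic genes alone, in dHep_IR, FL_IR and FL_control.

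The class II counts that chose the members are given as description. Members held 10 to 699 UMIs of H2-Aa, H2-Ab1 and H2-Eb1 in dHep_IR (median 132), 225, 84, 16, 14 and 13 UMIs in the 5 FL_IR members, and 10 to 492 in FL_control (median 235.5). As a median share of a cell's UMIs this was 0.911% in dHep_IR, 0.135% in FL_IR and 2.80% in FL_control. Most cells below the threshold lay far from it: 388 of 471 low cells in dHep_IR, 139 of 141 in FL_IR and 38 of 73 in FL_control had no class II UMI. Just inside it (10 to 14 UMIs) stood 5, 2 and 1 members, and just outside (5 to 9 UMIs) 12, 0 and 1 cells. A threshold of 5 gave 111, 5 and 21 members, and a threshold of 20 gave 92, 2 and 19. Lyz2 ranged over 11 to 832 UMIs in dHep_IR members (median 58), 18 to 242 in FL_IR members (median 56) and 11 to 1003 in FL_control members (median 128).

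**Figure D1:**
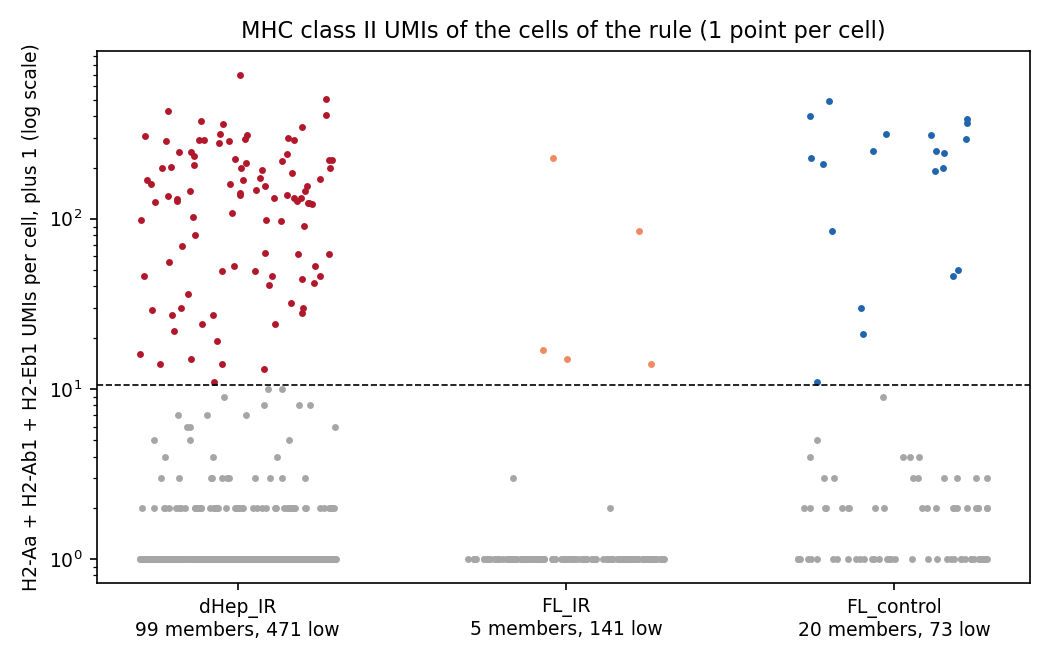
Summed UMIs of H2-Aa, H2-Ab1 and H2-Eb1, plus 1, in each cell of the rule (vertical log axis, members coloured, low cells grey) by library (horizontal axis, dHep_IR, FL_IR, FL_control), with the threshold of 10 UMIs marked. Most dHep_IR and FL_control members stand well above it, with medians of 132 and 235.5 UMIs, while 3 of the 5 FL_IR members hold 13 to 16.

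The cells were checked against markers of the types they could hold. Macrophage genes were present: C1qa was at 1192 CPM in dHep_IR members, 2054 in FL_IR and 2167 in FL_control, and Cd68, a lysosomal protein of macrophages, at 215, 140 and 399. Adgre1 (F4/80), the classical macrophage surface marker, was low in dHep_IR members at 62.8 CPM, against 187 in FL_IR and 371 in FL_control. Clec4f was absent by the rule, and the summed Kupffer list stood at 16.0, 385 and 157 CPM, where 1 cell held all 33 UMIs in FL_IR and 1 cell held 28 of 33 in FL_control. The dHep_IR members therefore carried C1q without a high level of Adgre1.

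Transcripts of other cells were present in part. At least 1 UMI of the dendritic genes that the rule did not use (Zbtb46, Batf3, Itgae, Ccr7, Fscn1 or Kit) was found in 37 of 99 dHep_IR members, 2 of 5 FL_IR members and 11 of 20 FL_control members, against 61 of 471, 9 of 141 and 19 of 73 low cells. Batf3, a transcription factor of cross-presenting dendritic cells, gave 38, 8 and 31 of these UMIs in dHep_IR, FL_IR and FL_control members. The summed list of conventional dendritic genes was at 120, 467 and 466 CPM, the defining gene Flt3 being at 0 by the rule. In dHep_IR, 34 of the 37 members with a further dendritic UMI also held C1q, so these genes did not mark a separate C1q-negative set there. In FL_control they stood in 3 of the 4 members without C1q and 8 of the 16 with C1q. Endothelial genes reached 3 or more UMIs in 11 of 99 dHep_IR members, 0 of 5 FL_IR members and 5 of 20 FL_control members, with 378, 46.7 and 993 CPM for the list (1 FL_control cell held 165 of 209 UMIs), against 10206, 9493 and 19556 CPM in endothelial-gate cells (Stab2, Kdr and Ptprb summing to at least 5 UMIs). Neutrophil genes summed to 1662, 770 and 95 CPM in members, against 148607, 176139 and 4634 CPM in all kept cells. In dHep_IR, 1 member held 1417 of the 2383 UMIs, and the rule had left out cells with a high share of S100a8 and S100a9. Hepatocyte genes summed to 548, 619 and 713 CPM in members, against 520, 2053 and 2855 CPM in all kept cells. They stood in 95 of 99, 5 of 5 and 20 of 20 members. Nonclassical monocyte genes summed to 289, 140 and 271 CPM in members, against 1158, 1358 and 356 CPM in all kept cells. They stood in 84 of 99, 3 of 5 and 16 of 20 members. B cell genes summed to 4.88, 11.7 and 95 CPM, T cell genes to 0, 0 and 4.75, NK cell genes to 11.9, 0 and 23.8, and plasmacytoid dendritic genes to 3.49, 0 and 0. The part of these transcripts in the differences below was not tested beyond leaving the cells out.

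Members of dHep_IR were compared with members of FL_control. Of 6464 genes with at least 20 UMIs over both sums, 12.8% were past 2-fold higher in dHep_IR and 12.6% past 2-fold lower, with a median log2 ratio of -0.03. FL_IR had 5 members and enters as values only. The lists summarised below were not chosen independently of these data, and each count is read against those shares.

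Genes that load and control MHC class II were lower in dHep_IR members, mostly by less than 2-fold. Of 7 loading and processing genes measured, 0 were past 2-fold higher and 1 past 2-fold lower (median log2 ratio -0.47). Cd74, the invariant chain, was at 10253 CPM in dHep_IR members, 6023 in FL_IR members and 15315 in FL_control members (dHep_IR over FL_control 0.669, 0.644 to 0.696); Cd74 is a marker of these cells and follows the class II genes of the rule. H2-DMb1, a chain of the peptide editor H2-DM, was at 480, 280 and 656 CPM (0.732, 0.609 to 0.885), and its log2 ratio of -0.45 was 0.03 without members holding further dendritic genes. Ciita, the master regulator of class II transcription, was at 25.1 CPM in dHep_IR members (36 UMIs in 23 of 99 cells), 0 in FL_IR members, and 119 CPM in FL_control members (25 UMIs in 11 of 20 cells), a ratio of 0.211 (0.123 to 0.367). Ctss, the protease that trims the invariant chain, was at 2025, 1436 and 2252 CPM (0.899). The regulator thus differed more than the genes that load peptide.

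Class I presentation was lower as well. Of 18 genes measured, 0 were past 2-fold higher and 6 past 2-fold lower (median -0.75). B2m, the light chain of class I, was at 2130 CPM in dHep_IR members, 817 in FL_IR members and 3906 in FL_control members (0.545, 0.505 to 0.590). H2-K1, a classical heavy chain, was at 915, 455 and 1901 CPM (0.481, 0.430 to 0.540), and H2-Q7, a nonclassical one, at 60.0, 58.4 and 271 CPM (0.221, 0.157 to 0.315). The difference was not limited to these cells: over all kept cells the class I list summed to 4481 CPM in dHep_IR, 3881 in FL_IR and 11889 in FL_control, and B2m was at 1154, 915 and 4170 CPM.

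Macrophage maturation genes were lower in dHep_IR members. Of 23 measured, 0 were past 2-fold higher and 12 past 2-fold lower (median -1.01). The difference was not limited to these cells. The list summed to 15235 CPM in dHep_IR members, 25528 in FL_IR members and 29632 in FL_control members. Over all kept cells it summed to 5896, 6662 and 14710 CPM, and in endothelial-gate cells to 5886, 5354 and 12929 CPM. Cx3cr1, the fractalkine receptor, showed the largest gap of the list: 4.88 CPM in dHep_IR members (4 of 99 cells), 58.4 in FL_IR members (1 of 5 cells) and 418 in FL_control members (12 of 20 cells), a ratio of 0.0117 (0.00456 to 0.0251). Adgre1, in 49, 5 and 17 cells, had a ratio of 0.169 (0.124 to 0.232). Cd81, a tetraspanin, was at 128, 257 and 584 CPM (0.220, 0.174 to 0.278; 825, 966 and 1047 CPM in endothelial-gate cells), and Axl, a receptor for apoptotic cells, at 53.7, 46.7 and 171 CPM (0.314, 0.209 to 0.480).

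The abundant maturation genes differed less. Apoe, the lipid carrier, was at 8037 CPM in dHep_IR members, 16155 in FL_IR members and 16968 in FL_control members (0.474, 0.456 to 0.492). C1qc was at 655, 934 and 1753 CPM (0.374, 0.331 to 0.423) and C1qb at 2082, 2848 and 2756 (0.755, 0.691 to 0.827), so chains of 1 complex differed by unequal amounts. Outside the members, Apoe was also lower in endothelial-gate cells, at 773, 693 and 4413 CPM.

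Transcripts of inflammatory monocytes were higher in dHep_IR members for part of the list. Of 16 genes, 7 were past 2-fold higher and 1 past 2-fold lower (median 0.59). Vcan, a matrix proteoglycan of blood monocytes, was at 233 CPM in dHep_IR members (72 of 99 cells), 23.3 in FL_IR members and 0 in FL_control members, at least 16.3-fold higher against a floor of 3 UMIs for the group. Chil3, a chitinase-like protein of myeloid cells, was at 3948, 11.7 and 119 CPM (33.2, 22.5 to 51.4) and stood in 74 of 99, 1 of 5 and 3 of 20 cells; 1 cell held 88% of the FL_control UMIs. Hp (haptoglobin) was at 624, 105 and 71.3 CPM (8.76, 5.28 to 15.7), and Gsr (glutathione reductase) at 681, 420 and 71.3 CPM (9.56, 5.77 to 17.1).

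Free RNA gives UMIs in cells that do not express a gene, and its part in these levels was not tested. In endothelial-gate cells Chil3 was at 783 CPM in dHep_IR, 510 in FL_IR and 4.14 in FL_control, and Vcan at 43.4, 19.1 and 2.07, below the dHep_IR members' 3948 and 233. Hp was at 271, 234 and 21.1 CPM there and Gsr at 172, 173 and 48.9, also below the dHep_IR members' 624 and 681. Lcn2 was at 264 CPM in dHep_IR members against 1300 CPM in dHep_IR endothelial-gate cells, so expression by the members is not read from it. Of the 16 inflammatory monocyte genes, 10 had a log2 ratio above 0. The 1 past 2-fold lower was Ly6c2, the marker of classical monocytes. It was at 45.3 CPM in dHep_IR members (24 of 99 cells), 0 in FL_IR members and 960 in FL_control members (6 of 20 cells), a ratio of 0.0472 (0.0352 to 0.0628). In FL_control 1 cell held 70.8% of these UMIs, and the log2 ratio of -4.39 was -1.16 without members holding endothelial transcripts. Plac8 (1528, 128 and 1791 CPM; 0.853, 0.764 to 0.954) was in 88 of 99 dHep_IR members and 7 of 20 FL_control members.

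**Figure D2:**
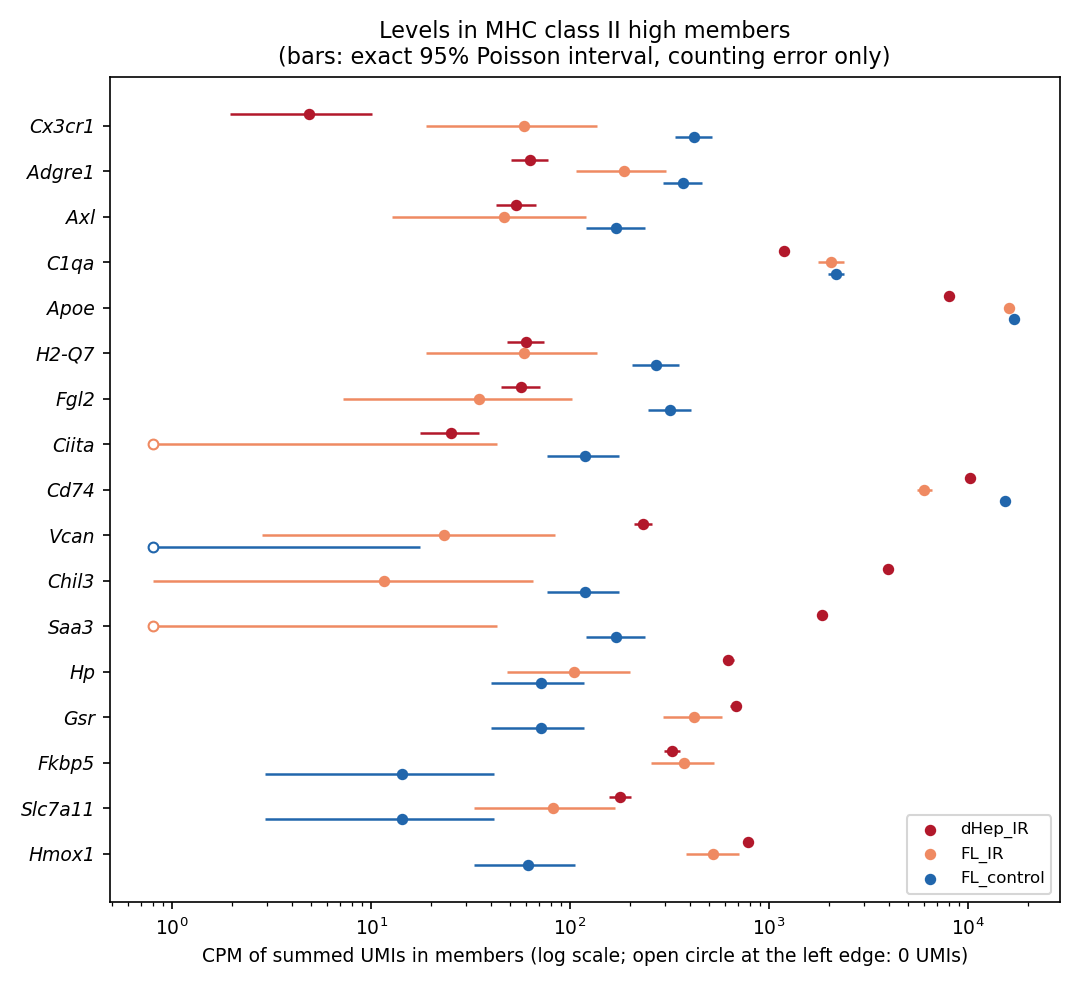
Levels of selected genes in CPM on a log axis in dHep_IR, FL_IR and FL_control members, with exact Poisson intervals as bars. Cx3cr1 and Ciita stand lower in dHep_IR than in FL_control members, at 4.88 against 418 CPM and 25.1 against 119 CPM, and Chil3 and Hmox1 stand higher, at 3948 against 119 CPM and 781 against 61.8 CPM.

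Interferon genes were lower in dHep_IR members on balance. Of 28 type I interferon-stimulated genes, 2 were past 2-fold higher and 13 past 2-fold lower (median -0.98), and of 23 interferon gamma-induced genes 2 were higher and 5 lower (median -0.18). Bst2 (tetherin) was at 162 CPM in dHep_IR members, 70.0 in FL_IR members and 527 in FL_control members (0.307, 0.244 to 0.388), and Irf7, which amplifies the response, at 72.5, 46.7 and 171 CPM (0.424, 0.288 to 0.638). The pair past 2-fold higher was Rsad2 (viperin; 78.8, 0 and 14.3 CPM; 5.53, 1.84 to 27.2, 11 of 99 cells) and Ifi205 (128, 46.7 and 47.5 CPM; 2.69, 1.43 to 5.70). Over all kept cells the type I list summed to 2851 CPM in dHep_IR, 2129 in FL_IR and 4802 in FL_control, the same order as in members (4380, 2661 and 5612).

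Chemokines and cytokines were mixed. Of 14 chemokines 6 were past 2-fold higher and 4 past 2-fold lower (median 0.47), and of 15 cytokines and growth factors 7 were higher and 3 lower (median 0.87). Ccl2, the ligand that draws monocytes, was at 721 CPM in dHep_IR members, 1249 in FL_IR members and 347 in FL_control members (2.08, 1.64 to 2.67). Il1b was at 1814, 595 and 1121 CPM (1.62, 1.41 to 1.86), Tgfbi (a matrix protein) at 771, 642 and 176 CPM (4.39, 3.16 to 6.27), and Il6 at 114, 479 and 28.5 CPM (4.01, 1.8 to 11.1). Lower in dHep_IR members were Ccl4, a chemokine that draws leukocytes, at 732, 945 and 2523 CPM (0.290, 0.261 to 0.323), and Cxcl16, a membrane-bound chemokine, at 78.8, 58.4 and 257 CPM (0.307, 0.220 to 0.433). Of 10 chemokine receptors 5 were higher and 2 lower (median 0.72), among the higher Ccr1 at 197, 280 and 66.5 CPM (2.96, 1.73 to 5.48).

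The gene counts of chemokines hide uneven cells. Ccl5 was at 768 CPM in dHep_IR members, 0 in FL_IR members and 42.8 in FL_control members (18.0, 9.43 to 39.4), yet it stood in 15 of 99 dHep_IR cells and 1 of them held 57.3% of its UMIs. For Cxcl3 (89.3, 0 and 4.75 CPM) 1 cell held 78.1%. Without the 11 dHep_IR and 5 FL_control members that held 3 or more endothelial UMIs, an alternative chosen after these data were seen, the chemokine median was -0.21, so its sign rests on few cells.

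Single genes of haem handling, iron storage and cystine transport were higher in dHep_IR members. Hmox1 (haem oxygenase) was at 781 CPM in dHep_IR members (81 of 99 cells), 525 in FL_IR members (4 of 5) and 61.8 in FL_control members (7 of 20), a ratio of 12.6 (7.37 to 23.8). Fth1, the ferritin heavy chain, was at 14180, 5311 and 6363 CPM (2.23, 2.11 to 2.36), and Slc7a11, the cystine transporter, at 179, 81.7 and 14.3 CPM (12.5, 4.24 to 61.1). Of 10 haem and iron genes 2 were past 2-fold higher and 1 past 2-fold lower (median 0.21), so the list as a whole stood near all genes. Fkbp5, induced by glucocorticoids, was at 324, 374 and 14.3 CPM (22.8, 7.74 to 111).

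Several of these differences also stood outside the members. Fkbp5 was at 433 CPM in dHep_IR endothelial-gate cells, 415 in FL_IR and 42.1 in FL_control, above the members' levels in each, and Mt2, a metallothionein, at 5924, 4231 and 154 CPM there, against 449, 233 and 23.8 CPM in members (18.9, 8.05 to 58.3). Hmox1 in endothelial-gate cells was at 77.0, 67.7 and 58.1 CPM, so its gap was not seen there. Of 17 genes of alternative activation and the acute phase, 11 were past 2-fold higher in dHep_IR members and 3 past 2-fold lower (median 1.99), while the list's summed level was 8689 CPM in dHep_IR members, 8171 in FL_IR members and 8411 in FL_control members. Retnla, a secreted protein of alternatively activated macrophages, gave 232, 3548 and 5113 CPM of those sums, and its UMIs came from 1, 1 and 2 cells. In endothelial-gate cells the same list summed to 24114 CPM in dHep_IR, 18142 in FL_IR and 1439 in FL_control. Over all kept cells it summed to 20467, 18050 and 2969 CPM. Both stood above the members' sums in dHep_IR and FL_IR and below them in FL_control. The part of free RNA in the members' values of this list was not tested. Of 12 integrated stress response genes 6 were higher and 1 lower (median 0.96).

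Genes induced by p53 after DNA damage were higher for part of the list, 6 of 16 past 2-fold and 0 lower (median 0.48). Cdkn1a, the cell-cycle inhibitor, was at 520 CPM in dHep_IR members, 572 in FL_IR members and 366 in FL_control members (1.42, 1.12 to 1.82), and Mdm2, the p53 ligase, at 96.3, 117 and 38.0 CPM (2.53, 1.25 to 5.98). Endothelial-gate cells differed more, with Cdkn1a at 1387, 1594 and 163 CPM. Lipid-associated macrophage genes stood lower on balance, 1 of 17 higher and 4 lower (median -0.60), and 13 lysosomal enzymes stood near all genes, 0 higher and 2 lower (median -0.25). Of 13 pyroptosis genes 3 were higher and 0 lower (median 0.04), and of 15 NF-kB feedback genes 4 were higher and 0 lower (median 0.41). Of 14 costimulators and checkpoint ligands 2 were higher and 2 lower (median 0.30): Cd274 (PD-L1) was at 90.0, 11.7 and 23.8 CPM (3.79, 1.58 to 11.9), and Sirpa, the don't-eat-me receptor, at 211, 280 and 565 CPM (0.374, 0.301 to 0.466).

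**Figure D3:**
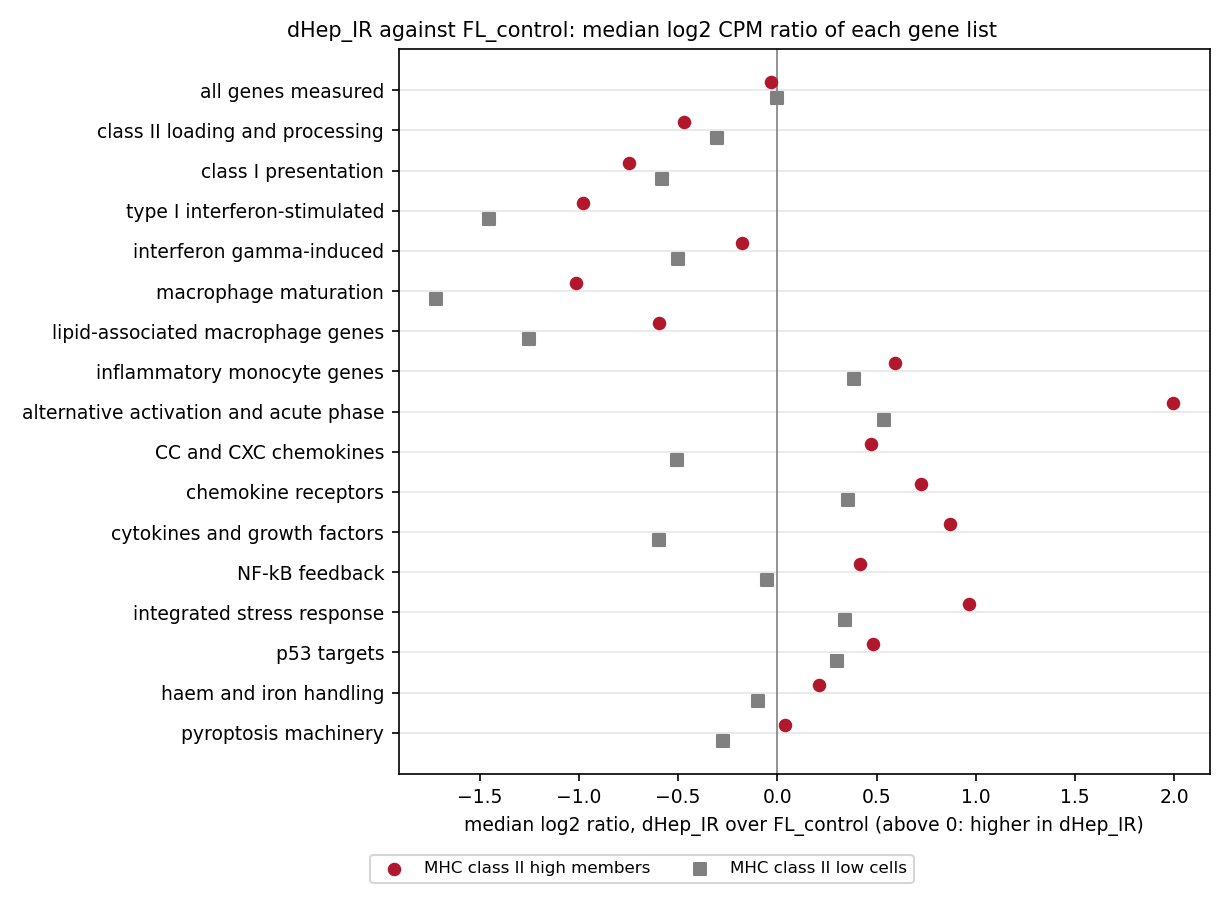
Median log2 ratio of dHep_IR over FL_control (horizontal axis) for each gene list (rows), for MHC class II high members (circles) and MHC class II low cells (squares), with all genes in the first row. For members, the alternative activation list has the highest of the medians given in the text (1.99) and macrophage maturation the lowest (-1.01), and the all-gene median is -0.03.

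By the rule for single genes, the 8 with the highest ratio in dHep_IR members were Vcan, Adora2b, Fkbp5, Ccl5, Cxcl3, Ddit4, Gch1 and Tnfsf9. Adora2b, an adenosine receptor, had 105, 0 and 0 UMIs in dHep_IR, FL_IR and FL_control members (at least 5.14-fold) and stood in 52 of 99 dHep_IR members. Gch1, which makes tetrahydrobiopterin, was at 72.5, 0 and 4.75 CPM (15.3, 2.68 to 609), and Tnfsf9 (4-1BB ligand) at 135, 70.0 and 9.50 CPM (14.2, 3.89 to 118). Among the 8 lowest were Lyz1, Retnla, Hpgd, Ly6c2, Ly6i, Pf4 and Adgre1. Hpgd, which breaks down prostaglandins, was at 20.2, 35.0 and 442 CPM (0.0458, 0.0291 to 0.0701) and stood in 14 of 99, 2 of 5 and 13 of 20 cells. Of these, Lyz1, Ly6i and Pf4 rest largely on single FL_control cells, which held 78.1%, 78.1% and 68.6% of their UMIs. Ly6c2 and Retnla do so as well. For Ly6c2, 1 FL_control cell held 143 of 202 UMIs, and for Retnla 379 of 1076 UMIs were left without the highest cell.

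The 5 FL_IR members were of 2 kinds. The cells with 225 and 84 class II UMIs had no C1q UMI, and both held further dendritic genes (9 UMIs). The other 3, with 13 to 16 class II UMIs, held C1q at 12576 CPM and none of these dendritic genes. So few cells and this mixture are why no ratio is given for FL_IR.

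Within each library, members were compared with MHC class II low cells, which met every part of the rule but the class II count; the genes of the rule are left out. In dHep_IR, 6.19% of 9496 genes were past 2-fold higher in members and 7.25% past 2-fold lower, and in FL_control 8.08% of 5867 were higher and 10.6% lower. These comparisons and the one between libraries share the members, so values are set side by side and not correlated.

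Class II loading genes were higher in members of both libraries, 4 of 9 past 2-fold in dHep_IR (median 0.85) and 5 of 7 in FL_control (median 2.56), with 0 lower in either. These medians depend on which genes are measured: the dHep_IR median was 1.85 at 100 or more UMIs and 2.26 at 5 or more, and the FL_control median was 1.21 at 5 or more, so no order of the libraries is read. Cd74 was at 10253 CPM in members and 113 in low cells of dHep_IR (90.9, 84.6 to 97.7), and at 15315 CPM in members and 135 in low cells of FL_control (113, 95.3 to 135). H2-DMb1 was at 480 and 18.9 CPM in dHep_IR members and low cells (25.4, 21.1 to 30.8), and at 656 and 24.1 CPM in FL_control (27.3, 17.6 to 44.0). Ciita was at 25.1 and 0.705 CPM in dHep_IR (35.6, 13.9 to 116) and at 119 and 5.01 CPM in FL_control (23.7, 8.91 to 79.3). Genes of the class II pathway that the rule did not use thus stood apart with it, and since the pathway is co-regulated this is no independent sign.

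By the rule for single genes, the highest in both libraries after Cd74, H2-DMb1 and H2-DMa were Tmem176b, Tmem176a, Aif1, Bcl2a1d and Id2. Tmem176b, a membrane protein known from dendritic cells and macrophages, was at 353 CPM in dHep_IR members and 96.2 in low cells (3.67, 3.26 to 4.12), and at 713 and 179 CPM in FL_control (3.97, 3.18 to 4.96). Aif1, an actin-binding protein of macrophages, was at 367 and 123 CPM in dHep_IR (2.99, 2.67 to 3.33) and at 494 and 58.1 CPM in FL_control (8.50, 6.11 to 11.9). Id2, an inhibitor of E proteins needed by dendritic cells, was at 749 and 342 CPM in dHep_IR (2.19, 2.04 to 2.36) and at 760 and 278 CPM in FL_control (2.74, 2.24 to 3.34).

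Class I genes in dHep_IR and type I interferon genes in FL_control were called at close to the shares of all genes. Of 18 class I genes 1 was past 2-fold higher in dHep_IR (median 0.45) and 5 in FL_control (median 0.65), with 0 lower in either. Of 31 type I interferon-stimulated genes 6 were higher and 0 lower in dHep_IR (median 0.62), and of 26 in FL_control 2 were higher and 1 lower (median 0.33, and -0.29 without the cells holding Prg4, Alox15 or Gata6 that are described below). Cxcl16 was at 78.8 CPM in members and 32.9 in low cells of dHep_IR (2.40, 1.90 to 3.02), and at 257 and 43.1 CPM in FL_control (5.95, 3.92 to 9.11).

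Inflammatory monocyte genes were lower in members of both libraries, 0 higher and 12 of 17 past 2-fold lower in dHep_IR (median -1.45), 0 higher and 11 of 17 lower in FL_control (median -1.51). Ly6c2 was at 45.3 CPM in dHep_IR members and 626 in low cells, and at 960 and 780 CPM in FL_control, where 1 member held most UMIs and the ratio of 1.23 was 0.670 (0.571 to 0.783) without cells holding Prg4, Alox15 or Gata6. Chil3 was at 3948 and 12462 CPM in dHep_IR members and low cells (0.317) and at 119 and 1201 CPM in FL_control (0.0989). Vcan was at 233 and 924 CPM in dHep_IR (0.252, 0.225 to 0.281), and at 0 and 73.2 CPM in FL_control. Among the 8 lowest single genes in both libraries were F5, Saa3, Mgst1, Prtn3, Chil3, Fn1 and Hopx. For part of these the FL_control level in low cells came from the 30 cells with Prg4, Alox15 or Gata6 described below: F5 was at 583 CPM in those cells and 29.2 in the other 43, leaving them out left 27 of the 3312 low-cell UMIs of Saa3, and the Fn1 ratio was 0.494 (0.408 to 0.594) in place of 0.212. Saa3, an acute-phase protein, was at 1838 and 10121 CPM in dHep_IR (0.182), and Prtn3, a protease of young myeloid cells, at 14 and 274 CPM (0.0510, 0.0311 to 0.0789).

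Macrophage maturation genes were higher in dHep_IR members than in dHep_IR low cells, 12 of 23 past 2-fold and 0 lower (median 1.34). C1qa was at 1192 CPM in members and 125 in low cells (9.57, 8.82 to 10.4), Pltp, a phospholipid transfer protein, at 153 and 9.73 CPM (15.8, 12.0 to 21.0), Axl at 53.7 and 5.08 CPM (10.6, 7.03 to 16.2) and Mrc1, the mannose receptor, at 195 and 35.3 CPM (5.54, 4.65 to 6.59). Adgre1 was the other way, at 62.8 CPM in members and 102 in low cells (0.613, 0.487 to 0.764). In FL_control 9 of 23 were higher and 1 lower (median 0.62), and C1qa was at 2167 CPM in members and 2248 in low cells (0.964).

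The FL_control low cells were not alike. Prg4, Alox15 and Gata6, genes known from large peritoneal macrophages, summed to 3 or more UMIs in 30 of these 73 cells, against 1 of 471 low cells in dHep_IR and 2 of 141 in FL_IR, and in 1 FL_control member. The 30 cells held C1qa at 4318 CPM and Apoe at 34411 CPM, and the other 43 held C1qa at 10.4 CPM and Apoe at 2221 CPM. Their Chil3 was at 36.7 CPM, against 2459 CPM in the other 43. Hence nearly all C1q of the FL_control low cells came from cells with these genes.

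Without those cells, an alternative chosen after this was seen, 19 FL_control members against 43 low cells gave other values. The ratio of C1qa was 213 (90.5 to 659), that of C1qc 54.7 (32.6 to 98.8), that of Apoe 7.45 (6.94 to 7.99) and that of Adgre1 3.46 (2.36 to 5.09). The maturation median became 1.57, beside 1.34 in dHep_IR (0.61 in dHep_IR without members holding further dendritic genes), and the chemokine median 0.68 in place of -0.53. The class II loading median was 2.13, and Cd74 differed by a ratio of 89.0 (72.3 to 111). The cells left out held nearly all C1q of the FL_control low cells, so the higher C1q ratios follow from leaving them out. With all cells the FL_control ratios were 0.964 for C1qa and 0.896 for Apoe. No likeness of the libraries in C1q or Apoe is therefore read.

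The low cells also show which differences between dHep_IR and FL_control were shared. Between low cells of dHep_IR and FL_control, 10.1% of 9558 genes were past 2-fold higher in dHep_IR and 13.5% lower. Type I interferon-stimulated genes were lower there too (1 of 31 higher, 19 lower, median -1.45), as was class I presentation (0 of 18 higher, 5 lower, median -0.58), and Fkbp5 was higher at 205 CPM in dHep_IR low cells and 12.0 in FL_control low cells (17.1, 9.75 to 33.1). Hmox1 was at 255 CPM in dHep_IR low cells and 137 in FL_control low cells (1.86, 1.56 to 2.23), beside 12.6 between members. Maturation genes were lower (1 of 23 higher, 16 lower, median -1.72), and the median was -0.80 without the cells holding Prg4, Alox15 or Gata6. No test of members against low cells across the libraries was possible with 1 library in a group.

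Members of a library differed among themselves in the genes they held. Each member was thinned to 2000 UMIs, which left out 0 members. After thinning, a C1q UMI was found in 72.7% of dHep_IR members and 75% of FL_control members, against 17.8% and 45.2% of low cells and 7.26% and 16.3% of endothelial-gate cells, which should lack it (median depths before thinning 5986 and 8388 UMIs). Ly6c2 was found in 5.05% of dHep_IR members and 25% of FL_control members (3.26% and 1.15% of endothelial-gate cells), Plac8 in 77.8% and 30.0% (6.65% and 4.45%), and Cx3cr1 in 0% (upper bound 3.66%) and 50% (0.0320% and 0.385%). Chil3 was found in 60.6% of dHep_IR members and 5% of FL_control members (14% and 0.275%), Hp in 59.6% and 5% (19.4% and 3.68%), Gsr in 67.7% and 20% (16.7% and 8.19%), Vcan in 33.3% and 0%, with an upper bound of 16.8% (1.82% and 0.0550%), and Hmox1 in 45.5% and 25% (12.3% and 10.1%). Fkbp5, at 43.4% and 5%, lay below the endothelial-gate shares of 58.3% and 8.85%, and Hpgd, at 2.02% and 60%, was at 59.4% and 49.5% there. The dHep_IR share of Ly6c2 lay near the endothelial one, so expression by the members is not read from it. The part of free RNA in these shares was not tested.

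Most dHep_IR members held C1q without Ly6c2. After thinning, 69 of 99 had C1q alone, 3 both, 2 Ly6c2 alone and 25 neither, while of 20 FL_control members 14 had C1q alone, 1 both, 4 Ly6c2 alone and 1 neither. In FL_control the 16 members with any C1q UMI held Apoe at 22642 CPM and Adgre1 at 484 CPM, and the 4 without held 318 and 37.4 CPM. All 4 without, and 3 of the 16 with, held Plac8. A further dendritic UMI stood in 3 of the 4 without and 8 of the 16 with. In dHep_IR the split was less sharp: the 78 with C1q and the 21 without held Apoe at 8167 and 7552 CPM and Plac8 at 1441 and 1850 CPM. Plac8 stood in 67 of the 78 and 21 of the 21. The dHep_IR members thus carried macrophage and monocyte transcripts in the same cells, at a median depth of 14200 UMIs with C1q and 13335 without.

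Other genes went with C1q in dHep_IR members. With the thinned split, 72 members with C1q (median 14200 UMIs) and 27 without (13499) had Mrc1 at 229 and 107 CPM (2.13, 1.54 to 3.03), Cd81 at 156 and 57.5 CPM (2.71, 1.74 to 4.4) and Pltp at 183 and 77.5 CPM (2.36, 1.61 to 3.57). Inflammatory monocyte genes were mixed. Chil3 was at 3416 CPM in members with C1q and 5322 without (0.642, 0.608 to 0.678). Hp (ratio 0.62), S100a4 (0.671), F13a1 (0.74) and Plac8 (0.789) were also lower with C1q. Thbs1 (1.71), Ms4a4c (1.48) and Fn1 (1.26) were higher with C1q. The intervals of the list's other measured genes, among them Vcan and Ly6c2, spanned equal levels. Cd74 hardly differed, at 10367 and 9957 CPM (1.04, 1.004 to 1.08). Mrc1, Cd81 and Pltp were higher with C1q at a like class II level, while Adgre1 was at 62.9 and 62.5 CPM (1.01, 0.626 to 1.67). The split was made on these cells, and these values are descriptions.

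By ratio of variance to mean after thinning, the most uneven genes of dHep_IR members were Ccl5, Slpi, Saa3, Fth1, Retnla, Cxcl2, S100a9, Chil3, Spp1 and Apoe. Ccl5 reached 95 UMIs in 1 thinned cell and was found in 10 of 99, and Retnla was found in 1 of 99 at 25 UMIs. Fth1, found in all 99, had a median of 21 and a highest value of 249 thinned UMIs. In FL_control they were Retnla, Apoe, Malat1, Lyz1, Ccl4, Lyz2, Fn1, mt-Co1, Wfdc17 and Cd74, where Apoe had a median of 43.5 and a highest value of 137 thinned UMIs.

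**Figure D4:**
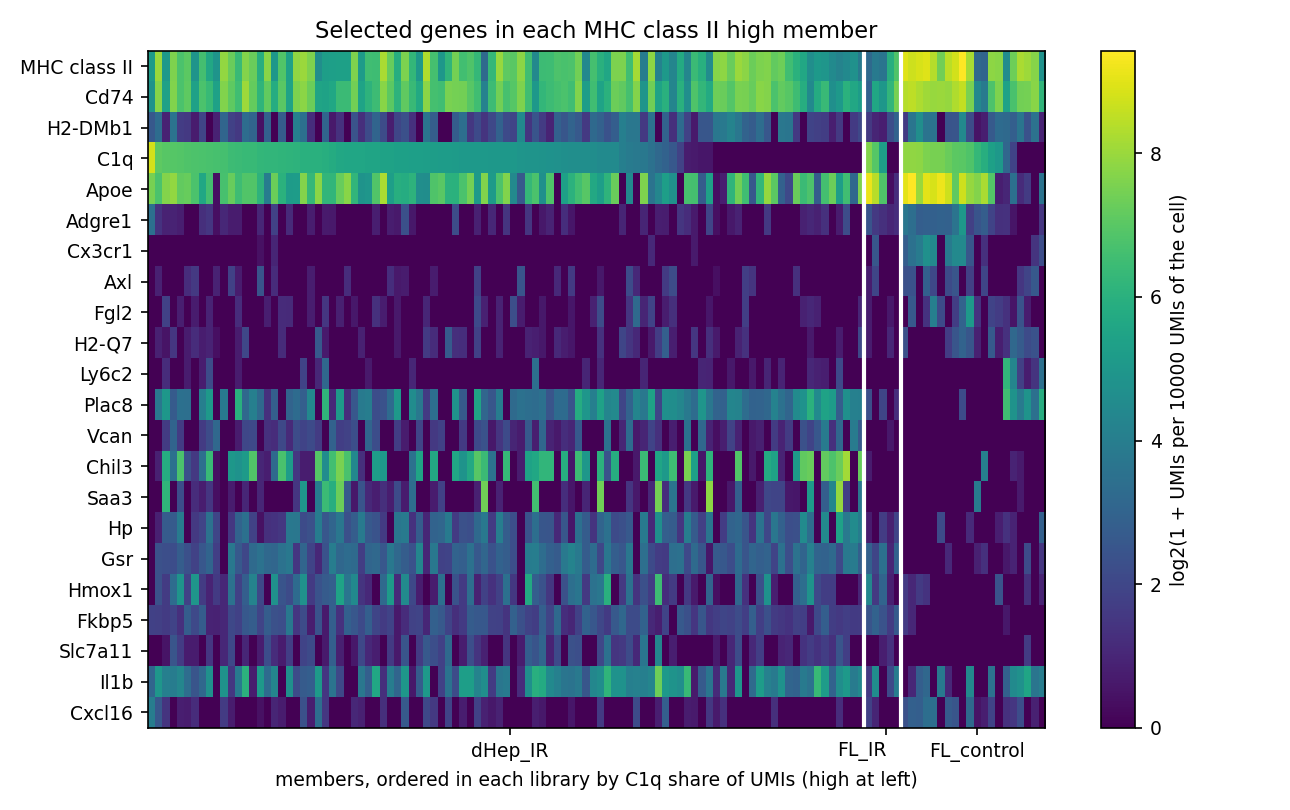
Level of selected genes (rows) in every member (columns, grouped as dHep_IR, FL_IR and FL_control and ordered within a library by C1q share, high at left), on a colour scale of log2 UMIs per cell scaled to equal depth. Chil3 and Plac8 are filled in most of the 99 dHep_IR columns, and Cx3cr1 in 12 of the 20 FL_control columns.

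Members were set beside the gated dendritic and Kupffer cells of the same libraries, whose gates used class II, Flt3, Clec4f and related genes. Ciita was at 25.1 CPM in dHep_IR members and 100 in 67 dendritic-gate cells, and at 119 in FL_control members and 137 in 118 dendritic-gate cells. C1qa was at 1192 CPM in dHep_IR members, 120 in dendritic-gate cells and 6276 in 403 Kupffer-gate cells, and at 2167, 37.1 and 6947 CPM in FL_control. Axl was at 53.7, 19.3 and 284 CPM in dHep_IR members, dendritic-gate and Kupffer-gate cells, and at 171, 16.2 and 544 CPM in FL_control. For C1qa and Axl the members lay between the other gates in both libraries.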

How the data were processed

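Per the labels' protocols, liver cells were captured with 10x Genomics 3' chemistry. The authors deposited raw UMI counts of each gene in each barcode. The submitters' processing notes name Cell Ranger 6.1.1, CASAVA 1.8, Seurat 4.0.3 and the build mm10, with no role or order, and the sources used here give no annotation version. Counts were neither normalized nor corrected for free RNA, and 3 libraries were analysed, 1 in each group, of 52858425 to 78694038 UMIs. Whether a library came from 1 animal is not given.

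The members and gene lists were chosen with earlier results of these data known. Cells were gated on raw counts with python 3.11.15 (numpy 2.4.6, pandas 2.3.3, scipy 1.17.1), and UMIs were summed per library and gate and scaled to CPM. Log2 ratios used a prior count of 0.5, and a ratio was given where at least 20 UMIs stood over both sums and each library had at least 20 members, with exact conditional intervals; no test was run. Past 2-fold is the call. A gene at 0 on 1 side is bounded with a floor of 3 UMIs for the group. The single genes named were the 8 highest and 8 lowest of each comparison among genes with at least 100 UMIs, in at least 10% of the cells of 1 side, with an interval excluding 1, and, if higher, at or above the level of all kept cells; mitochondrial, ribosomal protein, sex-linked and unnamed genes, the rule's genes and markers of other cells were left out. For members against low cells, both libraries had to stand on the same side of 1. Other genes named are list members, chosen after their values were seen. Some genes that these rules or lists include are not reported here.

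Shares of cells with a UMI were taken after thinning each cell to 2000 UMIs. Doublets were called with Scrublet in scanpy 1.11.5 at an expected rate of 6% and kept (7 dHep_IR, 0 FL_IR and 1 FL_control members), and left out as an alternative. TMM factors (edgeR 4.0.16) and DESeq2 1.42.0 size factors (R 4.3.3) were alternatives to total UMIs. The ratios and intervals were run on simulated sums with Poisson error only, the error the intervals assume. That run checked the code and does not cover differences between cells or animals. Figures were drawn with matplotlib 3.10.9.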

Additional observations from a re-analysis of the deposited data

Results flagged for a closer look

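For 4 gene lists the median log2 ratio of members over MHC class II low cells had opposite signs in the libraries labelled dHep_IR and FL_control. With 1 library in a group these differences were not tested. CC and CXC chemokines had a median of 0.80 in dHep_IR and -0.53 in FL_control. Lipid-associated macrophage genes stood at 0.34 in dHep_IR and -0.71 in FL_control, and NF-kB feedback genes at 0.33 in dHep_IR and -0.71 in FL_control. The p53 targets stood at 0.35 in dHep_IR and -0.40 in FL_control. Without the FL_control cells holding Prg4, Alox15 or Gata6, the FL_control medians were 0.68 for chemokines, -0.50 for lipid-associated genes, -0.36 for NF-kB feedback and -0.61 for p53 targets, so 3 of the 4 kept their FL_control sign. The dHep_IR lipid-associated median was -0.046 without members holding further dendritic genes, so its sign depends on the members counted. For p53 targets the medians of the interval limits spanned 0 in dHep_IR (-0.13 to 0.94) and in FL_control (-1.39 to 0.74).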

How the results depend on the processing

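No paired analysis was possible because each group holds 1 library and the labels give no replicate numbers. TMM and DESeq2 factors, another prior count and stricter cell filters left every list median led with on its side of 0. The cause of the values below was not tested. Members were 0.821% of kept cells in dHep_IR and 0.136% in FL_control without members holding further dendritic genes. For dHep_IR against FL_control members, 246 genes were past 2-fold higher and 113 lower at 100 or more UMIs, and 1500 higher and 1809 lower at 5 or more. The inflammatory monocyte median was 1.14 with means of per-cell CPM, 1.01 with class II at 0.2% or more of UMIs, and 1.5 without members holding further dendritic genes. The alternative activation median was 2.68, 2.64 and 3.21 under those same settings, and 2.79 without cells holding Prg4, Alox15 or Gata6. Without members holding further dendritic genes the maturation median was -1.59, the type I interferon median -1.99 and the Lyz1 log2 ratio 0.14. Without endothelial transcripts the chemokine median was -0.21 and the Ly6i log2 ratio 1.39. For members against low cells in dHep_IR, 218 genes were higher and 301 lower at 100 UMIs, 1082 higher and 1238 lower at 5 UMIs, and 1198 lower without further dendritic genes. The class II loading median was 1.85 at 100 UMIs and 2.26 at 5 UMIs. The maturation median was 1.03 without Scrublet calls, 0.61 without further dendritic genes and 1.11 without endothelial transcripts. Without further dendritic genes the lipid-associated median was -0.046 and the interferon gamma median -0.0027. For members against low cells in FL_control, 63 genes were higher and 171 lower at 100 UMIs, 1321 higher and 1389 lower at 5 UMIs, 845 higher and 1210 lower without further dendritic genes, and 293 higher without Prg4, Alox15 or Gata6. The class II loading median was 1.21 at 5 UMIs and 2.13 without Prg4, Alox15 or Gata6. The inflammatory monocyte median was -2.28 with class II at 0.2% of UMIs. The maturation median was 1.34 without further dendritic genes and 1.57 without Prg4, Alox15 or Gata6, where the log2 ratios of Pltp and Cxcl1 were 1.60 and 1.24. The Gdf15 log2 ratio was 0.33 without further dendritic genes. Between low cells of dHep_IR and FL_control, the alternative activation median was -0.041 without endothelial transcripts and the chemokine median 0.35 without Prg4, Alox15 or Gata6. Of called genes, 68.5% were higher between libraries at 100 UMIs, 28.4% within dHep_IR without further dendritic genes and 36.4% within FL_control under TMM. Leaving out cells with endothelial transcripts, with Prg4, Alox15 or Gata6, with a shared barcode, or with most UMIs of a gene was chosen after seeing the data. With 20 FL_control members, 1 cell can hold most UMIs of a gene, and 3 UMIs is the limit a count of 0 allows.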
